A study of Saccharomyces cerevisiae with 6 samples.

Results

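The genes described here are PRM4, PRM5, PRM6, PRM8, PRM9 and PRM10, 6 of the 5449 budding yeast genes measured. PRM stands for pheromone-regulated membrane protein, and these 6 were set apart from PRM1, PRM2, PRM3 and PRM7. The measurements compare the vps1 deletion strain, given in the labels as Y05072, with the wild type strain BY4741, with 3 Affymetrix arrays per strain. VPS1 encodes a GTPase related to dynamin that acts in endocytosis and in sorting to the vacuole, and BY4741 is a haploid laboratory strain of mating type a with deletions in HIS3, LEU2, MET17 and URA3. Both strains grew at 30 degrees in a minimal medium with supplements, and the labels name no pheromone treatment. The series design calls the 3 samples of each strain biologically independent. Nothing in the sources used here says whether they came from 1 clone of the deletion strain, and the labels name no strain in which VPS1 was put back.

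When a haploid yeast cell senses the pheromone of the opposite mating type, a receptor, a G protein and a kinase cascade activate the transcription factor Ste12, which switches on genes for arrest, adhesion and fusion. The PRM genes were named as a group because they respond to pheromone and are predicted to span membranes. Cell wall damage is signalled by another kinase cascade, which ends in the kinase Slt2 and the transcription factor Rlm1, and PRM5 is known as a target of that cascade as well. Whether the 6 products are membrane proteins cannot be seen in expression values. No sequence of these genes was used here.

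The members were chosen by name with earlier results of this strain comparison known, and the array values themselves chose the probe set of a gene, as the one with the highest mean over the 6 arrays. Each of the 6 genes had 1 probe set, so that choice decided nothing for them. Their differences are therefore given as a description, and no p-value is given for them. Values are log2 signals after quantile normalization of all probe sets, which gives every array the same distribution. In the deposited values the deletion strain was higher almost throughout, with a median difference of 0.51 over all genes, against -0.04 on the quantile scale. Probe sets whose names are not in the yeast gene table shared that offset, at 0.48.

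VPS1 itself was at 2.54, 2.40 and 2.23 (log2) in the vps1 deletion strain, below the background level of 3.53 to 3.59, against 10.32, 9.98 and 9.95 in wild type, which fits the labels. Background was set for each array as the 95th percentile of these probe sets without a yeast name. The a-cell genes STE2, STE6, MFA1 and MFA2 had means of 12.40, 11.07, 12.38 and 12.43 in the deletion strain, against 12.87, 11.48, 12.69 and 13.27 in wild type. Of the genes of the opposite mating type, MF(ALPHA)1, MF(ALPHA)2 and STE3 had means of 3.95, 4.89 and 7.22 in the deletion strain, against 4.34, 5.02 and 6.69 in wild type. Of the loci deleted in BY4741, MET17 and URA3 were below background on all 6 arrays, and LEU2 and HIS3 had means of 3.64 and 10.63 in the deletion strain, against 4.57 and 10.78 in wild type. Over genes, arrays correlated at r = 0.991 to 0.995 within the vps1 deletion strain, 0.985 to 0.994 within wild type and 0.964 to 0.975 between strains.

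On the quantile scale PRM4, PRM5, PRM10 and PRM8 were higher in the vps1 deletion strain, and PRM6 and PRM9 were lower. The differences ran from 2.96 for PRM4 to -0.76 for PRM6 (log2, deletion minus wild type), with a median of 1.01, against a median of -0.04 and a range from the 5th to the 95th percentile of -0.50 to 0.62 over all genes. In the limma fit over all genes (adjusted p under 0.05) all 6 passed the threshold, 4 as higher and 2 as lower. The share of all genes that passed was 13.0%, with 6.77% higher and 6.28% lower. For all 6 genes the arrays of the strains did not overlap, which held for 33.9% of all genes, 15.0% higher and 19.0% lower. Since the members were chosen with this comparison known, nothing is read from these counts. In bulk cultures a change per cell and a change in the share of cells that express a gene cannot be told apart.

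**Figure D1:**
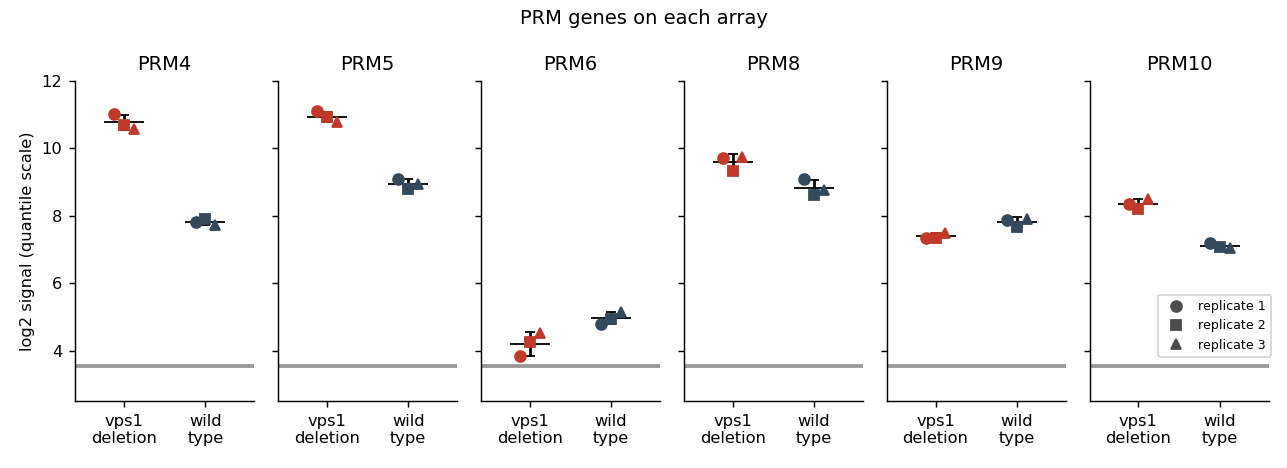
Log2 signal on the quantile scale (vertical axis) of the 6 PRM genes on each array, with the vps1 deletion strain left of wild type, a marker shape per replicate number, and the mean and SD over 3 arrays in black. The grey band is the background level of the arrays, 3.53 to 3.59. PRM4, PRM5, PRM8 and PRM10 sit higher in the deletion strain, PRM6 and PRM9 lower, and PRM6 lies near the band.

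PRM4 encodes a protein predicted to cross the membrane once, and its transcript is known to respond both to Ste12 during mating and to Cat8, an activator of genes used on non-fermentable carbon. PRM4 stood at 11.03, 10.71 and 10.59 in the vps1 deletion strain, against 7.81, 7.91 and 7.74 in wild type. The lowest deletion array was 2.68 above the highest wild type array. The difference was 2.96 ± 0.13 (log2, SE), or 7.77-fold, the 13th highest of the 5449 genes. Between arrays of the same replicate number it was 3.23, 2.79 and 2.85, so each pair showed a similar size.

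PRM5, also predicted to cross the membrane once, is widely used as a reporter of the cell wall integrity pathway. It stood at 11.10, 10.93 and 10.80 in the vps1 deletion strain, against 9.10, 8.79 and 8.94 in wild type. The arrays of the strains were separated by at least 1.71. The difference was 2.00 ± 0.12 (log2, SE), or 4.0-fold, the 25th highest of all genes, and by replicate number it was 2.00, 2.14 and 1.87.

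PRM10 encodes a membrane protein predicted to cross the membrane several times, whose role is little known. PRM10 was at 8.34, 8.22 and 8.50 in the vps1 deletion strain and at 7.21, 7.07 and 7.05 in wild type. All 3 deletion arrays were at least 1.01 above every wild type array. The difference was 1.25 ± 0.11 (log2, SE), or 2.37-fold, and by replicate number 1.13, 1.16 and 1.45.

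PRM8 and PRM9 belong to the DUP240 family of small membrane proteins, and both carry a signal thought to bind the COPII coat of vesicles that leave the endoplasmic reticulum. PRM8 was at 9.72, 9.34 and 9.76 in the vps1 deletion strain, against 9.09, 8.62 and 8.76 in wild type. The lowest deletion array exceeded the highest wild type array by 0.24, about as much as the SD within a strain (0.23 in the deletion strain and 0.24 in wild type). The difference was 0.78 ± 0.16 (log2, SE), or 1.71-fold, and the limma call was lost without vps1 deletion replicate 1 or 3 (0.72 and 0.70) and without wild type replicate 2 or 3 (0.67 and 0.74). PRM9 went the other way, at 7.34, 7.35 and 7.50 in the vps1 deletion strain, against 7.89, 7.68 and 7.92 in wild type. The strains were separated by 0.18. The difference was -0.43 ± 0.10 (log2, SE), or 1.35-fold lower, and its limma call was lost whichever array was left out, at differences of -0.49 to -0.38.

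The lower level of PRM9 also depends on the scale. As deposited, PRM9 was at 7.64, 7.62 and 7.82 in the vps1 deletion strain and at 7.59, 7.44 and 7.60 in wild type, a difference of 0.15 in the opposite direction. With each array centred on the median of all genes the difference was -0.39, and the call was lost. PRM9 is thus lower relative to most genes, not in the values as deposited.

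PRM6, also called KCH2, encodes a potassium transporter of the plasma membrane that supports calcium influx during the pheromone response. PRM6 was at 3.84, 4.25 and 4.52 in the vps1 deletion strain and at 4.80, 4.95 and 5.15 in wild type. All 6 arrays were above background, the lowest by 0.25, so the signal was dim in both strains. The difference was -0.76 ± 0.18 (log2, SE), or 1.70-fold lower, and by replicate number -0.96, -0.70 and -0.63. As deposited it was -0.17 and did not pass, and the call was also lost with arrays centred on the median (-0.71), without vps1 deletion replicate 1 or 2 (-0.58 and -0.77) and without wild type replicate 2 or 3 (-0.76 and -0.68). PRM4, PRM5 and PRM10 passed in all of these settings.

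**Figure D2:**
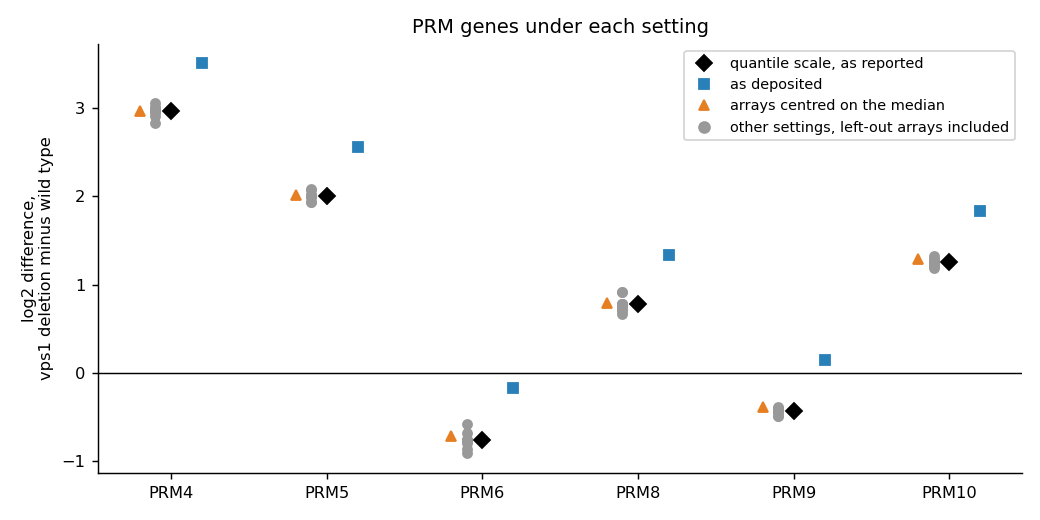
Log2 difference, vps1 deletion minus wild type (vertical axis), of each PRM gene under the reported quantile scale (diamonds), as deposited (squares), with arrays centred on the median (triangles) and under the other settings, including each array left out (grey circles). All 6 squares lie above the diamonds, and that of PRM9 lies above 0, at 0.15.

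Relatives of these genes were then compared in the same fit. YNL058C, the paralogue of PRM5, fell. It was at 8.97, 8.88 and 8.80 in the vps1 deletion strain, against 10.0, 9.87 and 9.84 in wild type. Its difference was -1.02 ± 0.10 (log2, SE; limma adjusted p = 0.000641), 2.03-fold lower, and it was lower as deposited too (-0.47). PRM5 and YNL058C thus lay on opposite sides of 0 on both scales.

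KCH1, the paralogue of PRM6 and a potassium transporter of the same kind, was at 9.46, 9.92 and 9.80 in the vps1 deletion strain and at 9.08, 9.42 and 9.63 in wild type, and the arrays overlapped. Its difference of 0.35 ± 0.17 (log2, SE) did not pass (limma adjusted p = 0.228), but passed once replicate number entered as a block (limma adjusted p = 0.0247). YJL107C, an uncharacterised gene that adjoins PRM10, was at 6.08, 5.75 and 5.84 in the vps1 deletion strain, against 5.66, 5.71 and 5.26 in wild type. Its difference of 0.35 ± 0.15 did not pass (limma adjusted p = 0.174).

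Of the other DUP240 genes, UIP3, MST28 and MST27 were measured, and 5 more of the list had no named probe set. UIP3, a protein of the nuclear envelope, rose. It was at 11.88, 11.92 and 11.99 in the vps1 deletion strain, against 10.83, 10.90 and 11.02 in wild type. Its difference was 1.02 ± 0.09 (log2, SE; limma adjusted p = 0.000614). MST28 and MST27, which bind coated vesicle proteins, had differences of 0.19 ± 0.11 and 0.15 ± 0.17 and did not pass (limma adjusted p = 0.303 and 0.637). The probe set used for MST28 has a suffix that marks possible signal from related genes, and its other probe set gave a difference of -0.01. Those of PRM8, PRM9, UIP3 and MST27 carry no such suffix.

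**Figure D3:**
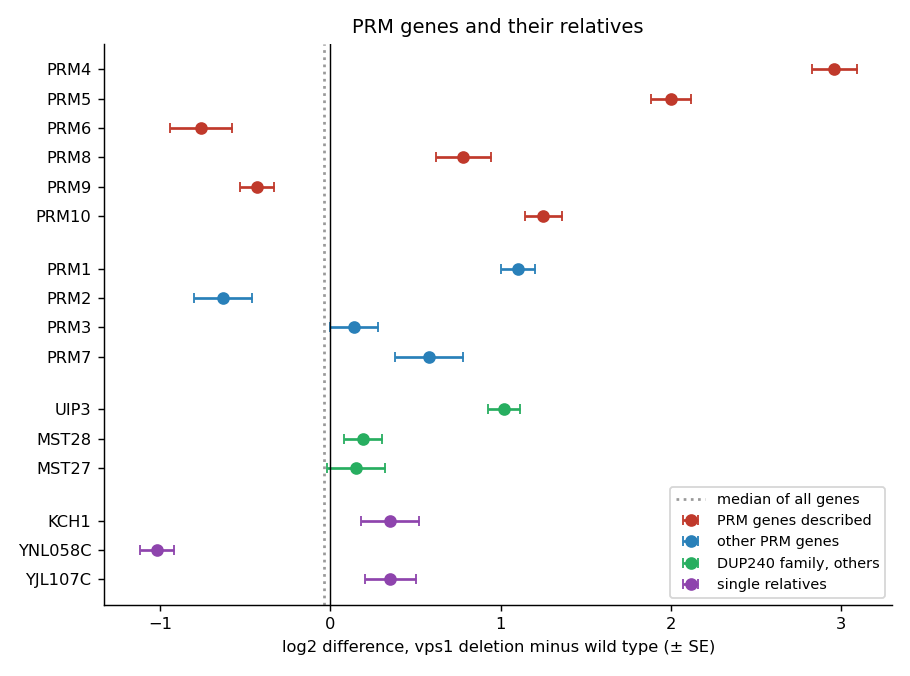
Log2 difference, vps1 deletion minus wild type, with its SE (horizontal axis), of the 6 PRM genes described, the 4 other PRM genes, the 3 other DUP240 genes and 3 single relatives. PRM5 at 2.00 and its paralogue YNL058C at -1.02 lie on opposite sides of 0, as do PRM8 at 0.78 and PRM9 at -0.43.

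The other genes named PRM include those known from fusion of mating cells and of their nuclei. PRM1, a membrane protein of plasma membrane fusion, rose. It was at 7.65, 7.47 and 7.75 in the vps1 deletion strain, against 6.45, 6.57 and 6.56 in wild type, with no overlap. Its difference was 1.10 ± 0.10 (log2, SE; limma adjusted p = 0.000641). PRM2 was at 4.80, 5.22 and 5.18 in the deletion strain, against 5.40, 5.91 and 5.79 in wild type. It fell by 0.63 ± 0.17 on the log2 scale and just passed (limma adjusted p = 0.0497), a call that was lost as deposited (-0.0013), with median centring, with an intensity trend and when any array except wild type replicate 1 was left out. PRM3, of nuclear fusion, had a difference of 0.14 ± 0.14 (limma adjusted p = 0.541). PRM7 had 0.58 ± 0.20 (limma adjusted p = 0.0931), which passed in the fit with a replicate block (limma adjusted p = 0.00618), and its second probe set gave 0.74. These 4 genes included 1 that rose, 1 that fell and 2 that did not pass, against 6.77% higher and 6.28% lower among all genes.

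Pheromone-induced genes outside the PRM family were mostly lower. Among 29 measured genes 16 fell, 1 rose and 12 did not pass, against 6.28% lower and 6.77% higher among all genes, and the median of the list was -0.47, against -0.04 over all genes. From this list and from the cell wall, calcium and Cat8 lists below, the 4 genes with the smallest p were named. Their p-values thus describe that choice and add no support, and the lists were chosen with earlier results of these data known. AGA2, an agglutinin subunit of a cells, was at 9.49, 9.30 and 9.63 in the vps1 deletion strain, against 10.90, 10.55 and 11.06 in wild type. It fell by 1.37 ± 0.15 on the log2 scale (limma adjusted p = 0.00161). ASG7, an a-specific regulator of signalling, fell by 1.34 ± 0.11 (limma adjusted p = 0.000466). SST2, which shuts off the G protein, fell by 0.97 ± 0.12 (limma adjusted p = 0.00205), and FUS1, a cell fusion protein and classical pheromone reporter, fell by 0.98 ± 0.13 (limma adjusted p = 0.00288). The exception that rose was SCW10, a cell wall glucanase, at 0.71 ± 0.09 (limma adjusted p = 0.0033), likewise named after its value was seen. Without vps1 deletion replicate 1 or 3, or without wild type replicate 2, 10 of the list passed, 1 higher and 9 lower. Among all 5449 genes 199 to 227 then passed as higher and 123 to 131 as lower. On the quantile scale PRM4, PRM5, PRM8 and PRM10 lay opposite to most of the list. PRM6 at -0.76 and PRM9 at -0.43 lay on the same side of 0 as most of it. As deposited, 9 of the 29 genes passed as higher and 5 as lower, against 4142 and 52 of all 5449 genes. The list median was 0.06 there, against 0.51 over all genes, so the direction of the list holds relative to most genes. AGA2, ASG7, SST2 and FUS1 were lower as deposited too, at -0.82, -0.76, -0.41 and -0.44.

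Of the cell wall integrity targets outside the PRM family about as many rose as did not pass. Among 23 measured genes 11 rose, 1 fell and 11 did not pass, against 6.77% higher and 6.28% lower among all genes, with a median of 0.47. With a replicate block 15 rose and 3 fell, against 784 and 892 of all 5449 genes. TIR1, a cell wall mannoprotein, was at 13.16, 12.89 and 12.88 in the vps1 deletion strain, against 8.87, 8.91 and 8.29 in wild type, a difference of 4.29 ± 0.18 (log2, SE; limma adjusted p = 2.07e-05). YPS3 and YPS1, aspartic proteases of the cell surface, rose by 2.40 ± 0.11 and 1.46 ± 0.12 (limma adjusted p = 2.14e-05 and 0.000379). GSC2, a subunit of glucan synthase, rose by 2.77 ± 0.14 (limma adjusted p = 4.12e-05). The gene that fell was YNL058C, the paralogue of PRM5 given above. The list ran from -1.02 to 4.29, where TIR1 alone set the upper end and GSC2 was next at 2.77. PRM5 at 2.00 lay within that range. So did the other PRM genes described and the 5th to 95th percentile of all genes, -0.50 to 0.62, so the range does not set PRM5 apart.

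Of 12 measured genes of calcium influx and calcineurin, which share GSC2 and YPS3 with the cell wall list and FIG1 with the pheromone list, 6 rose and 6 did not pass, against 6.77% higher among all genes, with a median of 0.59. With a replicate block 7 rose and 1 fell, against 784 and 892 of all 5449 genes. PMC1, the vacuolar calcium pump, rose by 1.30 ± 0.13 (log2, SE; limma adjusted p = 0.000854), and GYP7, a Rab GTPase activator, by 1.11 ± 0.12 (limma adjusted p = 0.00158). The influx genes FIG1, CCH1 and MID1, named after their values were seen, did not pass and were at -0.89, -0.28 and -0.14 on the quantile scale. ECM7 was at 0.028.

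Targets of Cat8, with which PRM4 shares a known regulator, mostly did not pass. Among 11 measured genes 1 fell and 10 did not pass, against 6.28% lower among all genes, with a median of 0.25 and a highest difference of 0.43, against 2.96 for PRM4. The 1 that fell was IDP2, a cytosolic isocitrate dehydrogenase, by 0.44 ± 0.10 on the log2 scale (limma adjusted p = 0.0293), and leaving out any of the 6 arrays ended that call. As deposited IDP2 was higher, by 0.16, and PRM4 was at 3.50. On that scale the list had a median of 0.82, against 0.51 over all genes. There 9 of the 11 genes passed as higher and none as lower, against 4142 and 52 of all 5449 genes. PCK1, of gluconeogenesis, SIP4, a transcription factor, and ACS1, an acetyl-CoA synthetase, had differences of 0.43 ± 0.16, 0.42 ± 0.14 and 0.34 ± 0.10 (limma adjusted p = 0.131, 0.0857 and 0.0634). With a replicate block 5 of the list passed, 3 higher and 2 lower, against 784 higher and 892 lower of all 5449 genes. Among the 5 were PCK1, SIP4 and ACS1 (limma adjusted p = 0.00666, 0.00694 and 0.0196).

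**Figure D4:**
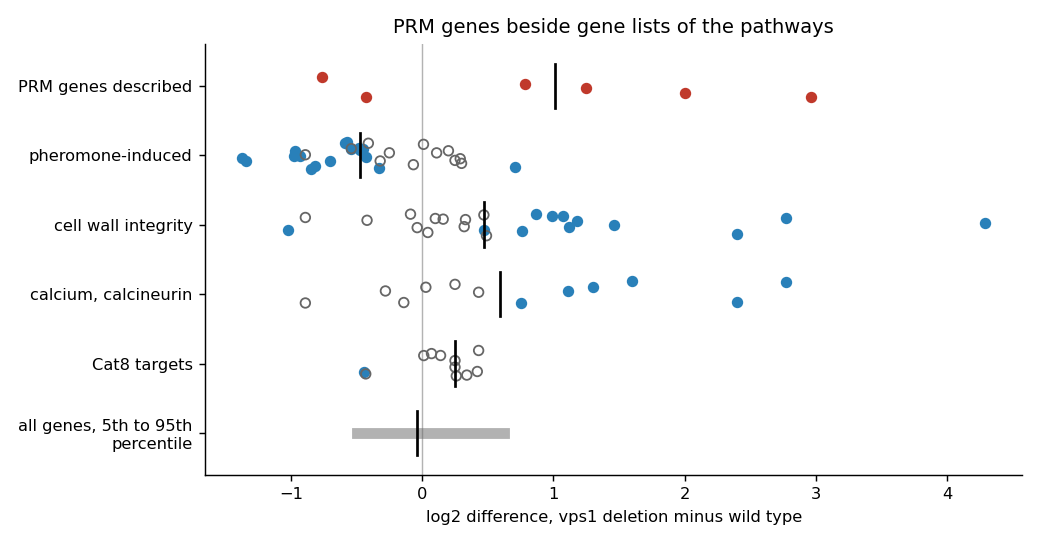
Log2 difference, vps1 deletion minus wild type (horizontal axis), of each gene of the PRM genes described and of 4 lists, filled where the gene passed the limma threshold and open where it did not, with the list median as a black line and the 5th to 95th percentile of all genes in grey. The pheromone-induced genes lie mostly left of 0 with a median of -0.47. Of the cell wall integrity targets 18 of 23 lie right of 0, with a median of 0.47, against 2355 of all 5449 genes right of 0.

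Most chromosomal neighbours of the 6 genes did not pass the test. The nearest measured gene on each side of each member, 12 genes in all, had a median difference of -0.12. Of these 1 rose, 1 fell and 10 did not pass, against 6.77% higher and 6.28% lower among all genes. With a replicate block 1 rose and 3 fell, against 784 and 892 of all 5449 genes. Next to PRM4 on chromosome XVI, TGS1, an RNA cap methyltransferase, and KIP2, a kinesin, had differences of -0.23 ± 0.10 and -0.12 ± 0.09 (log2, SE; limma adjusted p = 0.171 and 0.431). Next to PRM5 on chromosome IX, HIS5, of histidine synthesis, fell by 0.43 ± 0.11 (limma adjusted p = 0.0408), while RHO3, a GTPase of polarised growth, had -0.30 ± 0.13 (limma adjusted p = 0.167, and 0.036 with a replicate block). The HIS5 call was lost when any array except wild type replicate 3 was left out, and as deposited the difference was 0.11.

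Beside PRM6 on chromosome XIII, GSF2, an endoplasmic reticulum protein of hexose transporter export, and PRP39, a splicing factor, had differences of -0.12 ± 0.11 and -0.23 ± 0.11 (log2, SE; limma adjusted p = 0.536 and 0.216). PRM8 on chromosome VII lies between ERV14, a cargo receptor of COPII vesicles at -0.06 ± 0.14 (limma adjusted p = 0.83), and MST27. PRM9 on chromosome I lies in a row of DUP240 genes, and its measured neighbours were UIP3 at 1.02 and MST28 at 0.19, against -0.43 for PRM9, and of the 2 only UIP3 passed. On chromosome X, UTP10, of ribosome synthesis, had -0.29 ± 0.11 beside PRM10 (limma adjusted p = 0.131, and 0.0449 with a replicate block), and YJL107C, whose annotated span overlaps that of PRM10, had 0.35. The third measured gene on that side, SET4, a SET domain protein named after its value was seen, was higher by 4.30 ± 0.19 (limma adjusted p = 2.07e-05). RPI1, a transcriptional regulator and the second measured gene on the RHO3 side of PRM5, likewise named after its value was seen, was lower, at -1.81 ± 0.15 (limma adjusted p = 0.000382).

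**Figure D5:**
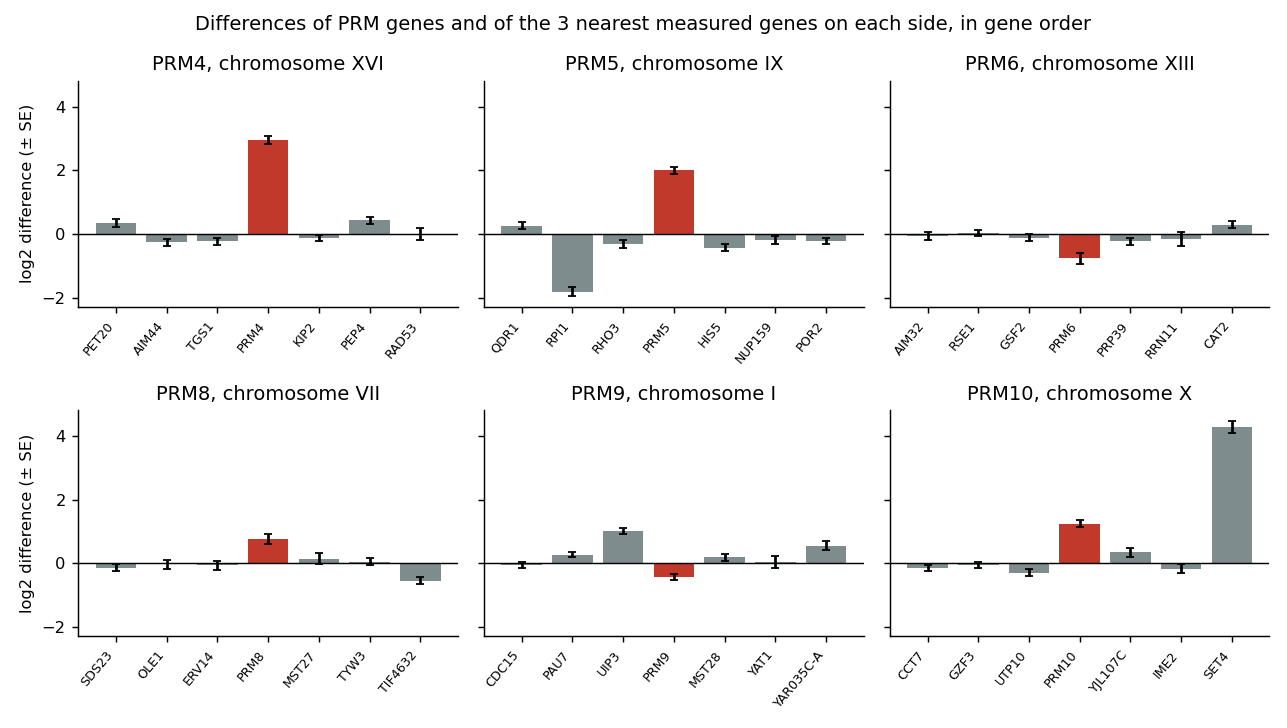
Log2 difference, vps1 deletion minus wild type, with its SE (vertical axis), of each PRM gene (red) and the 3 nearest measured genes on each side (grey), in gene order along the named chromosome. SET4 near PRM10 reaches 4.30 and UIP3 next to PRM9 1.02, while RPI1 near PRM5 lies at -1.81.

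For each of the 6 genes the 3 genes with the most similar course over the 6 arrays were found, by the Euclidean distance between mean-centred log2 values among 5384 genes above background. The strain difference is part of this measure. Genes found by it therefore have a difference like that of the member, and no p-value is given for that match. PRM4 was nearest to TIR3, an anaerobic cell wall mannoprotein (distance 0.487), GSC2 (0.588) and TIS11, which binds mRNAs of iron metabolism (0.718). PRM5 was nearest to DIA1, of invasive growth (0.285), ERG3, a sterol desaturase (0.379), and YJL213W (0.388), and PRM10 to ARN1, a siderophore transporter (0.198), HSP78, a mitochondrial chaperone (0.266), and EGH1, a steryl glucosidase (0.273). PRM8 was nearest to MRP8 (0.232), YLR031W (0.234) and RCN1, a calcineurin regulator (0.236).

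PRM6 was nearest to CLB5, an S phase cyclin (distance 0.23), PAM18, of mitochondrial import (0.357), and CDC6, of replication origin licensing (0.365). CLB5 was at 8.31, 8.49 and 8.71 in the vps1 deletion strain, against 9.09, 9.18 and 9.50 in wild type. Its difference was -0.76 ± 0.15 (log2, SE), and -0.21 as deposited. PRM9 was nearest to YPR027C (0.0818), CLB1, a mitotic cyclin (0.119), and FEX2, a fluoride exporter (0.13). None of the 18 genes was another of the 6. Their strain differences, spread from 2.96 to -0.76, already set the 6 apart on this measure, so nothing is read from that.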

How the data were processed

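Total RNA was labelled from 100 ng by 3' in vitro transcription, per the labels' protocols. The authors deposited log2 values, 1 per probe set and array, and GCOS, RMA and limma are listed per the submitters' processing notes, with roles, versions and array scaling not given in the sources used here. Of 10928 probe sets, 7244 had 1 gene symbol, 1 had several and 3470 had none, and the others were 166 control and 47 reporter probe sets. Of those with 1 symbol, 5498 matched the yeast gene table of assembly R64 by gene ID, giving 5449 genes, and 1746 did not and set the background. Genes with several probe sets, 47 of them, took the one with the highest mean.

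All probe sets were quantile normalized over the 6 arrays, and genes were tested with limma 3.58.1 in R 4.3.3 (lmFit, eBayes, 2-sided, deletion minus wild type, 3 against 3 arrays, Benjamini-Hochberg over all genes, threshold 0.05). The fit was tested on simulated data with independent noise on each array, so that test does not cover noise shared by arrays of the same replicate number. The members and lists were chosen with earlier results of these data known. Named are the members, relatives, strain markers, nearest neighbours, up to 4 genes per other list by smallest p, and the 3 most similar genes per member. MLP1 in the cell wall list was read as KDX1, whose older name it is. Arrays have no read depth, so their number limits the precision. The median SE of a difference was 0.12. Deviations from strain means correlated at 0.67, 0.65 and 0.29 between arrays of the same replicate number in the labels. The numbers were therefore taken to pair the arrays in a second fit, with replicate number as a block. Unless a block is named, the SEs, limma p-values, calls and percentages given come from the fit without this pairing. With the block 1676 genes passed, against 711, so genes that did not pass are not shown to be unchanged. Alternatives were other scalings, that block, a filter on dim genes, averaged probe sets, an intensity trend and leaving out each array.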

Additional observations from a re-analysis of the deposited data

How the results depend on the processing

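On the values as deposited 4194 of all genes passed, against 711, with 3 of the other DUP240 genes, 3 single relatives, 21 cell wall integrity targets, 10 calcium genes, 9 Cat8 targets and 9 neighbours, beside 4 of the 6 members and 14 pheromone-induced genes. The deposited values carry the offset between strains given above. On them PRM9 (0.15), STE2 (0.049), STE6 (0.13), MFA1 (0.22), MF(ALPHA)1 (0.15), MF(ALPHA)2 (0.50), HIS3 (0.38), TGS1 (0.31), KIP2 (0.44), RHO3 (0.25), HIS5 (0.11), GSF2 (0.42), PRP39 (0.31), ERV14 (0.48), UTP10 (0.25), IDP2 (0.16), PAM18 (0.0015), YPR027C (0.11), CLB1 (0.15) and FEX2 (0.092) turned from lower to higher. A replicate block gave 1676 passing genes, 784 higher and 892 lower, with 2 single relatives, 5 Cat8 targets and 4 neighbours, and all 6 members passed as before. STE6, MFA1 and MRP8 also passed then, and no other named call changed beside those given above. With arrays centred on the median 1 of the other PRM genes and 0 Cat8 targets passed by limma (6 at an unadjusted p under 0.05), and with an intensity trend 1 of the other PRM genes did. Leaving out 1 array gave 322 to 787 genes in all (358, 446 and 322 without vps1 deletion replicate 1, 2 or 3, and 351 without wild type replicate 2), 3 to 5 of the 6 members (3 without vps1 deletion replicate 1 and without wild type replicate 2 or 3), 1 to 2 of the other PRM genes, 10 to 18 pheromone-induced genes, 0 Cat8 targets by limma (2 to 7 at an unadjusted p under 0.05) and 1 to 2 neighbours. MST27 turned to -0.035 without vps1 deletion replicate 3 (highest 0.32), MF(ALPHA)2 to 0.013 without wild type replicate 1 (lowest -0.22) and ERV14 to 0.077 without wild type replicate 3 (lowest -0.18). Quantile normalization over yeast probe sets, the filter on dim genes and averaged probe sets left every count within 1.5 times. The cause of these moves was not tested. The share of all genes at an unadjusted p under 0.05 was not counted, so nothing is read from the Cat8 counts at that threshold.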
